A study of Mus musculus with 7 samples.

Results

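Vasoactive intestinal peptide (VIP) and pituitary adenylate cyclase-activating polypeptide (PACAP) are related neuropeptides, and their genes and receptor genes were followed here in the forebrain of P15 *Lhx6* mice. The members were the genes whose symbol was *Vip*, *Adcyap1*, *Vipr1*, *Vipr2* or *Adcyap1r1*, and all 5 were found among the 47729 genes of the count table and passed the filter on low counts. RNA was sequenced from 7 forebrain samples, 4 from *Lhx6*+/- mice (control) and 3 from *Lhx6*-/- mice (mutant). Both genotypes carried the Lhx6tm2Vpa allele on an F1(C57BL/6 X 129Sv) background, so that the controls had 1 mutated copy of *Lhx6* and were not wild type. Each sample was a pool of 2 animals, and the loss of *Lhx6* was not restricted to a cell type by any Cre driver. Libraries are named by the number that their data columns carried, with 2, 3, 10 and 11 control and 5, 12 and 13 mutant.

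Both peptides are cut from larger precursors and released from neurons, and they act on class B1 G-protein-coupled receptors. PAC1, the product of *Adcyap1r1*, prefers PACAP, whereas VPAC1 (*Vipr1*) and VPAC2 (*Vipr2*) bind both peptides about equally well. All 3 receptors couple mainly to the stimulatory G protein and raise cyclic AMP, which activates protein kinase A and transcription through the cyclic AMP response element (CRE). In the cortex VIP marks a class of interneurons born in the caudal ganglionic eminence that mostly inhibit other interneurons, whereas PACAP is made mainly by excitatory and hypothalamic neurons. *Lhx6* encodes a LIM homeodomain transcription factor of interneurons born in the medial ganglionic eminence, and the comparison asks how these peptide systems stood in a forebrain that lacked it.

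The *Vip* and *Adcyap1* promoters are known targets of cyclic AMP signalling, and the bases before the starts of the 3 members that differed between genotypes are therefore shown. They are RefSeq sequences on GRCm38.p6, each 250 bases long, read 5′ to 3′ on the + strand and ending at the base before the start. They cover chr10:5638968-5639217 for *Vip*, chr17:93198767-93199016 for the more upstream of the RefSeq starts of *Adcyap1*, and chr9:121642466-121642715 for *Vipr1*. Capitals mark TGACGTC, 7 of the 8 bases of the CRE (TGACGTCA), and in *Vipr1* the CRE half-site TGACG, which there lies on the other strand.
Vip: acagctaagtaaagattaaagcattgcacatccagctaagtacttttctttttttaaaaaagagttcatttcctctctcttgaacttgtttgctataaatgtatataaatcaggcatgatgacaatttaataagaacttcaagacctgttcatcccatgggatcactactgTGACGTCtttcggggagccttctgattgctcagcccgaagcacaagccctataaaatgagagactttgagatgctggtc
Adcyap1: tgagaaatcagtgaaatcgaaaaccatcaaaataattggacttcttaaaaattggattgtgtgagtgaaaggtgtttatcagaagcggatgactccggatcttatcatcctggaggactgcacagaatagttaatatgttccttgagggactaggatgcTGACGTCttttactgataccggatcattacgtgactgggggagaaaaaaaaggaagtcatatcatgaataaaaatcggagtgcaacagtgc
Vipr1: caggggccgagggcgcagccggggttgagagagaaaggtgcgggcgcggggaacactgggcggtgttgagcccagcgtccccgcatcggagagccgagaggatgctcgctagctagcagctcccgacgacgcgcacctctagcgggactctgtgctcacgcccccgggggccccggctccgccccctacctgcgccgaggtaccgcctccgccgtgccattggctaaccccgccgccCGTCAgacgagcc
TGACGTC, searched on both strands, stood 79 bases before the *Vip* start and 91 bases before this *Adcyap1* start, on the + strand in both, and 2.78% of the 32851 RefSeq promoter windows of this length held it. The second RefSeq start of *Adcyap1* shared that match, 242 bases upstream, and both RefSeq starts lie before the start of the gene in the Ensembl annotation that the counts used. The half-site TGACG, which lies within TGACGTC, was held by 17.8% of windows, and in *Vipr1* it stood 13 bases before the start. The windows of *Vipr2* and *Adcyap1r1* held neither, none of the 5 genes had the full TGACGTCA (1.55% of windows), and none had the AP-1 site TGACTCA (4.46%). These motifs were chosen after the windows had been seen, and a match of letters does not show that a factor bound there.

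Libraries summed to between 32556304 and 38069151 expected counts, and every member was far above the floor that a count of 0 allows, which is 3 counts (0.0788 to 0.0921 CPM, counts scaled to a library total of 1000000). Normalized counts of *Lhx6* ran from 476 to 615 in control and from 70.1 to 76.6 in mutant libraries, which matched the genotype labels. The 4 Y-linked genes *Ddx3y*, *Eif2s3y*, *Kdm5d* and *Uty* summed to 4275 normalized counts in mutant library 12, close to the 3735 and 4546 of control libraries 2 and 3, and *Xist* had 11.4 there. The labels record no all-male mutant pool and 1 mutant pool of 2 females, so 1 mutant library went against its recorded sexes, and results are given with and without it where they differ. In the controls, libraries 10 and 11 were the female ones (*Xist* 21619 and 21311), so sex and library number could not be told apart in that genotype. Defining forebrain genes were abundant (*Bcl11b* 3454 normalized counts in controls and 3290 in mutants), whereas the 8 markers of cerebellum and hindbrain summed to at most 98.4 normalized counts in a control and 65.1 in a mutant library. Of them *Cbln3* (means 26.0 and 24.9) and *Pcp2* (26.9 and 21.3) passed the filter on low counts, *En1* reached 35.5 in control library 10, and *Hoxa5* had 0 in every library.

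Both ligand genes rose in mutants, and the level per length of *Adcyap1* was below that of *Vip* in every control library and above it in every mutant library. *Adcyap1*, the PACAP precursor gene (ENSMUSG00000024256, GRCm38 chr17:93199422-93205485, + strand), reached 680, 599, 539 and 493 normalized counts in the control libraries 2, 3, 10 and 11. In the mutant libraries 5, 12 and 13 it reached 5580, 6170 and 6904. Every mutant library thus stood several fold above every control. The means were 578 ± 80.7 (SD, n = 4) and 6218 ± 664 (SD, n = 3), a 10.8-fold rise with a log2 fold change of 3.43 ± 0.127 (SE, 95% interval 3.14 to 3.72). Its adjusted p of 2.33e-05 (edgeR's quasi-likelihood test, Benjamini-Hochberg) was the lowest of 19684 tested genes, and its fold change was the 26th largest in size.

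*Vip* (ENSMUSG00000019772, chr10:5639218-5647614, + strand) also rose. It had 663, 975, 1056 and 868 normalized counts in the controls and 1420, 1855 and 1841 in the mutants, in the same order of libraries. The lowest mutant library stood above the highest control, but the controls spread widely, with library 2 below the others. The means were 891 ± 170 (SD, n = 4) and 1705 ± 247 (SD, n = 3), a 1.91-fold rise with a log2 fold change of 0.94 ± 0.163 (SE, 95% interval 0.57 to 1.31, edgeR adjusted p = 0.0149). The call depended on single mutant libraries, since the adjusted p was 0.0685 without mutant library 12 (log2 fold change 0.87) and 0.0804 without mutant library 13 (0.88). In these pooled tissue samples, more cells that make a transcript and more transcript per cell cannot be told apart, for *Vip* and for every gene below.

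**Figure D1:**
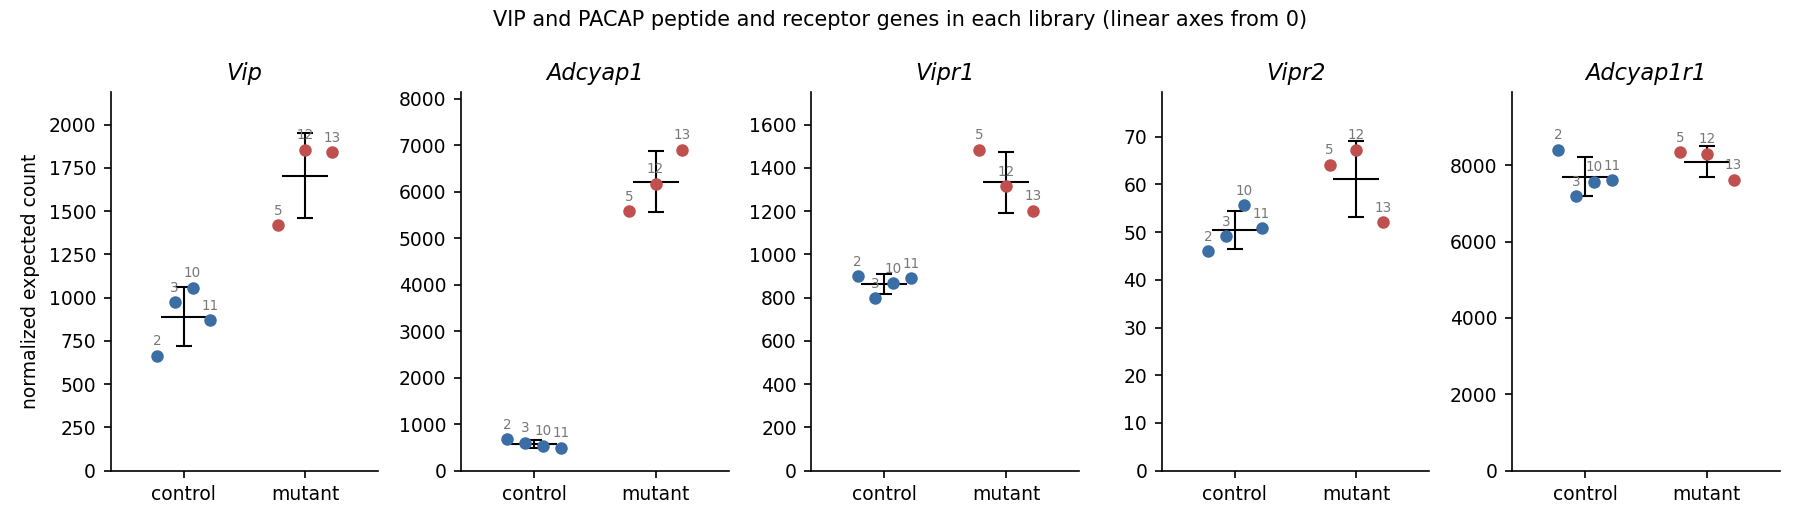
Normalized expected counts of the 5 genes in each library, on linear axes from 0, with control libraries in blue and mutant libraries in red, the library number beside each point, and the mean and SD in black. *Adcyap1* stood at 493 to 680 in controls and 5580 to 6904 in mutants, *Vip* and *Vipr1* were also separated by genotype, and *Vipr2* and *Adcyap1r1* overlapped.

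Of the receptor genes, 1 of 3 passed the test. *Vipr1*, which encodes VPAC1 (ENSMUSG00000032528, chr9:121642716-121672954, + strand), had 899, 796, 866 and 889 normalized counts in the controls and 1484, 1314 and 1202 in the mutants. The controls lay within a narrow band, and all mutant libraries stood above it. The means of 863 ± 46.4 (SD, n = 4) and 1333 ± 142 (SD, n = 3) gave a 1.55-fold rise and a log2 fold change of 0.63 ± 0.0939 (SE, 95% interval 0.41 to 0.84, edgeR adjusted p = 0.00791). *Vipr1* stayed under the threshold in each of the 17 tests under other settings, with an adjusted p of at most 0.0417.

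*Vipr2*, which encodes VPAC2, the receptor known for its part in the circadian clock of the suprachiasmatic nucleus (ENSMUSG00000011171, chr12:116077726-116146261, + strand), was the scarcest member. It had 46.1, 49.2, 55.6 and 50.8 normalized counts in the controls and 64.2, 67.3 and 52.1 in the mutants. Mutant library 13 lay within the control range while mutant libraries 5 and 12 lay above it. The log2 fold change of 0.28 ± 0.186 (SE, edgeR adjusted p = 0.507) did not pass the test, and its 95% interval from -0.15 to 0.70 leaves room for a change as large as that of *Vipr1*. An antisense transcript, *Gm20658*, overlaps *Vipr2* but shares 0 exon bases with it.

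*Adcyap1r1*, the PACAP receptor gene (ENSMUSG00000029778, chr6:55451978-55501451, + strand), had the highest level per length of the 5 in controls. It had 8405, 7191, 7570 and 7613 normalized counts in the controls and 8341, 8303 and 7624 in the mutants. All 3 mutant libraries lay inside the control range. Its log2 fold change was 0.07 ± 0.0840 (SE, edgeR adjusted p = 0.739), and the 95% interval from -0.12 to 0.26 ends below the lower end of the *Vipr1* interval.

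Of the 5 genes, 3 were called higher in mutants and 0 lower at an edgeR adjusted p of 0.05 or less. Over all 19684 tested genes, 4.85% were called, 2.97% higher and 1.87% lower. In the same 3 genes every mutant library exceeded every control, which held for 10.7% of tested genes. The 0 lower calls stayed 0 at an unadjusted edgeR p of 0.05 and with DESeq2, which called the same number of members higher, 3. Of all 19684 tested genes, 3590 passed at an unadjusted edgeR p of 0.05, and DESeq2 called 1731 genes. The counts of the lists below are to be read against these. No member lies on chromosome 2, the chromosome of *Lhx6*. At most 0.414% of the 36-base words of a member, the length of 1 read, occurred in another gene, so that few reads could have been shared with a copy.

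**Figure D2:**
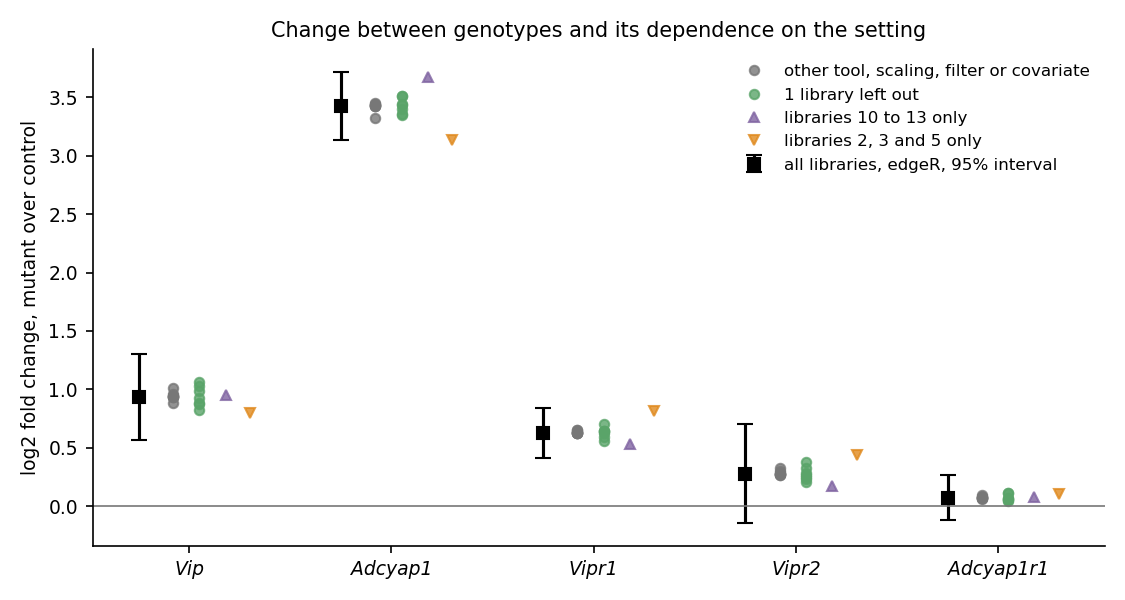
Log2 fold change of each gene, mutant over control, from edgeR on all libraries (black squares with 95% intervals) and under other settings: other tools, scalings, filters or covariates (grey), 1 library left out (green), libraries 10 to 13 only (purple) and libraries 2, 3 and 5 only (orange). *Adcyap1* stayed between 3.13 and 3.67, *Vip* between 0.80 and 1.06, and no setting moved a gene across 0.

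The libraries fell into runs of numbers, 2, 3 and 5 and then 10 to 13, and each run held both genotypes. Within libraries 10 to 13 the log2 fold change was 3.67 for *Adcyap1*, 0.95 for *Vip*, 0.53 for *Vipr1*, 0.17 for *Vipr2* and 0.08 for *Adcyap1r1*. Within libraries 2, 3 and 5, where the mutants had no replicate and no test was run, it was 3.13, 0.80, 0.82, 0.44 and 0.11 in the same order. *Adcyap1* and *Vip* were thus further apart between genotypes in libraries 10 to 13, and *Vipr1* and *Vipr2* in libraries 2, 3 and 5. With Y-linked expression as a covariate the log2 fold change was 3.32 for *Adcyap1* and 1.01 for *Vip* (edgeR adjusted p = 3.7e-05 and 0.0215). Without mutant library 12 it was 3.44 for *Adcyap1* and 0.64 for *Vipr1* (edgeR adjusted p = 0.000357 and 0.0417).

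The order of the genes was compared per length, in counts per kb of merged exon per 1000000 counts of the TMM-scaled library total. In controls the level per length was 32.7 ± 2.17 for *Adcyap1r1*, 16.4 ± 3.12 for *Vip*, 7.76 ± 1.08 for *Adcyap1*, 4.35 ± 0.234 for *Vipr1* and 0.317 ± 0.0251 for *Vipr2* (SD, n = 4). No neighbours in that order overlapped between libraries. In mutants *Adcyap1* came first with 83.5 ± 8.91, ahead of *Adcyap1r1* with 34.4 ± 1.71 and *Vip* with 31.3 ± 4.54, and *Vipr1* (6.72 ± 0.716) and *Vipr2* (0.384 ± 0.0505) were again last (SD, n = 3). *Adcyap1r1* and *Vip* did not differ beyond their spread there, because the *Vip* levels of 34.1 and 33.8 in mutant libraries 12 and 13 lay within the range of *Adcyap1r1*. *Adcyap1* passed from below *Vip* to the top of the order, and the receptors kept their order.

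**Figure D3:**
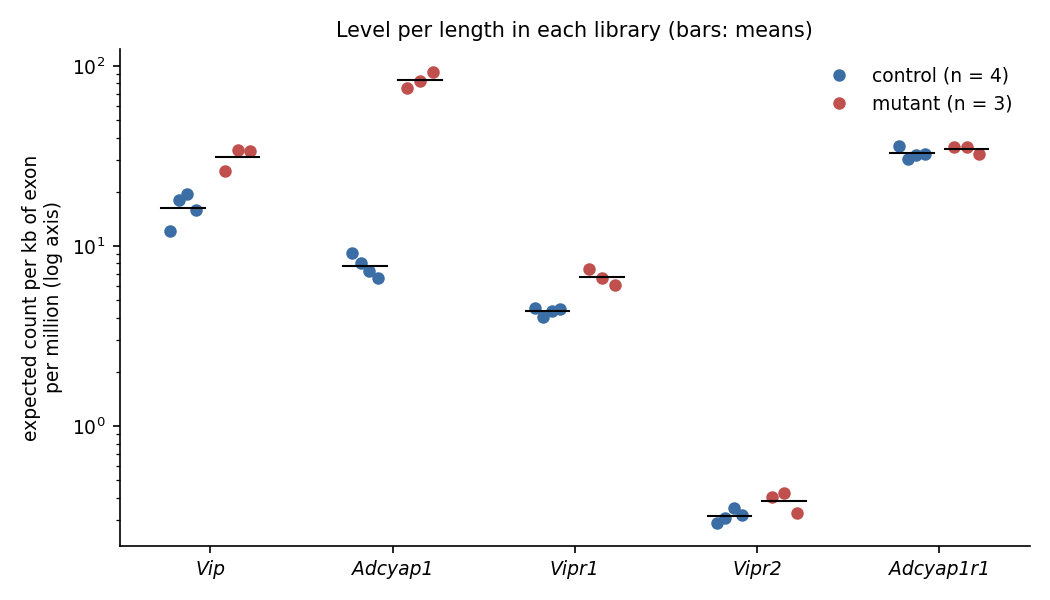
Level of each gene in each library, in expected counts per kb of exon per 1000000 counts on a log axis, with controls in blue, mutants in red and means as bars. *Adcyap1* moved from a mean of 7.76 to 83.5, above *Adcyap1r1*, and *Vipr2* stayed below 1 in every library.

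Whether both ligands changed by the same factor was asked with ratios within a library, which need no scaling between libraries. The log2 ratio of *Adcyap1* to *Vip* counts was 0.04, -0.70, -0.97 and -0.81 in the controls, in the order of libraries above, and 1.97, 1.73 and 1.91 in the mutants. *Adcyap1* counts were thus below *Vip* counts in 3 of 4 control libraries, level with them in control library 2 and above them in all 3 mutant libraries. The means of -0.61 ± 0.446 (SD, n = 4) and 1.87 ± 0.124 (SD, n = 3) differed by 2.48, with an exact two-sided permutation p of 0.0571, the smallest that 4 libraries against 3 can give. Per length, *Adcyap1* had 0.497 ± 0.171 times the level of *Vip* in controls and 2.68 ± 0.227 times in mutants.

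Ratios of receptor to ligand and of receptor to receptor are given as descriptions with no test. The level per length of *Adcyap1r1* was 4.26 ± 0.503 (SD, n = 4) times that of *Adcyap1* in controls and 0.416 ± 0.0623 (SD, n = 3) times in mutants, so that the PACAP gene was below its receptor gene in every control library and above it in every mutant library. *Vipr1* relative to *Vip* was 0.276 ± 0.0696 in controls and 0.220 ± 0.0583 in mutants, and those ranges overlapped. Between the receptors, *Adcyap1r1* was 7.88, 7.61, 7.36 and 7.22 times *Vipr1* in the controls and 4.74, 5.32 and 5.35 times in the mutants, and those ranges did not overlap. *Vipr1* was 13.8 ± 1.40 times *Vipr2* in controls and 17.6 ± 1.65 times in mutants, with mutant library 12 (15.67) beside control library 2 (15.66).

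**Figure D4:**
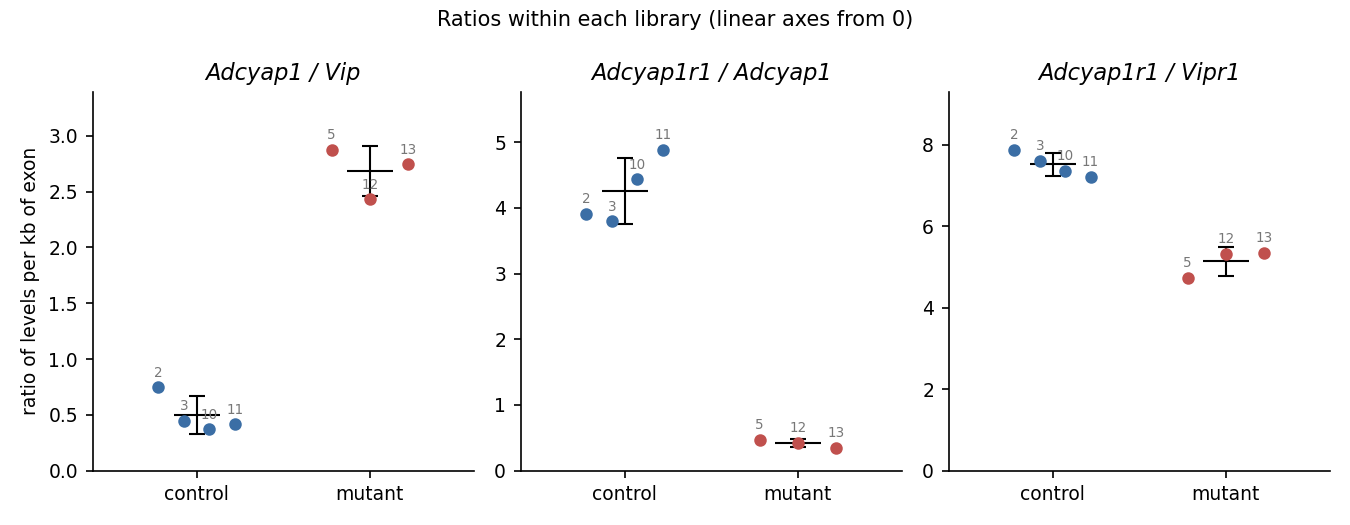
Ratios of levels per kb of exon within each library for *Adcyap1* over *Vip*, *Adcyap1r1* over *Adcyap1* and *Adcyap1r1* over *Vipr1*, on linear axes from 0, with library numbers beside the points and the mean and SD in black. All 3 ratios were separated by genotype, and *Adcyap1r1* over *Adcyap1* fell from a mean of 4.26 to 0.416.

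VIP and PACAP precursors are processed by enzymes shared with many neuropeptides, and 2 of 7 tested genes of precursor processing and peptide breakdown were called higher and 0 lower (median log2 fold change 0.18, against -0.01 over all tested genes). *Pcsk1*, the prohormone convertase of the regulated secretory pathway, rose from 694 ± 79.0 (SD, n = 4) to 1217 ± 49.2 (SD, n = 3) normalized counts (log2 fold change 0.81, edgeR adjusted p = 0.00424). *Pam*, the enzyme that amidates the C-terminus of VIP and PACAP, rose from 6394 ± 215 (SD, n = 4) to 9383 ± 257 (SD, n = 3) normalized counts (0.55, edgeR adjusted p = 0.00467). Both calls held with any 1 library left out. The other convertase, *Pcsk2*, had a log2 fold change of -0.31 (edgeR adjusted p = 0.155), *Cpe*, which trims basic residues after the convertases, had 0.18, and *Dpp4* and *Mme*, peptidases that can break these peptides down, had -0.34 and -0.13, all above the threshold. At an unadjusted p of 0.05 edgeR counted 2 lower, and DESeq2 called 0 lower.

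Downstream of the receptors, 3 of 31 tested signalling genes were called higher and 0 lower, with a median log2 fold change of 0.08. They were *Crem*, a cyclic AMP-responsive transcription factor (0.55, edgeR adjusted p = 0.0388), *Pde4a*, a phosphodiesterase that degrades cyclic AMP (0.39, 0.0478), and *Prkar2a*, a regulatory subunit of protein kinase A (0.38, 0.0331). DESeq2 called 4 higher and 1 lower, and at an unadjusted p of 0.05 edgeR counted 5 higher and 1 lower. Those 6 of 31 were close to the share over all tested genes, 3590 of 19684. Each of the 3 calls was lost in 6 of the 7 fits that left out 1 library. The stimulatory G protein gene *Gnas* had a log2 fold change of 0.08, *Creb1* -0.04 and *Plcb1* 0.04. Among the receptor activity-modifying proteins, which can associate with VPAC1 and VPAC2, *Ramp1* had -0.40 (edgeR adjusted p = 0.0522) and *Ramp2* 0.29 (0.0995).

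Of 27 genes for other peptides and receptors of the same family, 14 had enough counts to be tested, 2 were called higher and 0 lower, with a median log2 fold change of 0.24. *Sctr*, the secretin receptor gene, had 28.1 ± 5.31 (SD, n = 4) and 56.7 ± 9.65 (SD, n = 3) normalized counts (1.01, edgeR adjusted p = 0.0489). *Gipr*, the receptor gene for the incretin GIP, had 67.3 ± 10.9 and 196 ± 119, with 333 in mutant library 5 against 122 and 132 in the others (1.54, edgeR adjusted p = 0.0444). The *Sctr* call was lost with any 1 library left out, and the *Gipr* call in 6 of those 7 fits. DESeq2 called 3 of the 14 higher and 0 lower. At an unadjusted p of 0.05 edgeR counted 5 higher and 3 lower, a threshold that 3590 of all 19684 tested genes passed. The untested ligands included *Sct* and *Gip*, with means of at most 3.32 normalized counts. For the stress peptide gene *Crh*, 209 ± 72.0 in controls against 387 ± 39.8 in mutants did not pass (0.89, edgeR adjusted p = 0.0794), nor did its receptors *Crhr1* (-0.29, 0.155) and *Crhr2* (0.93, 0.145).

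**Figure D5:**
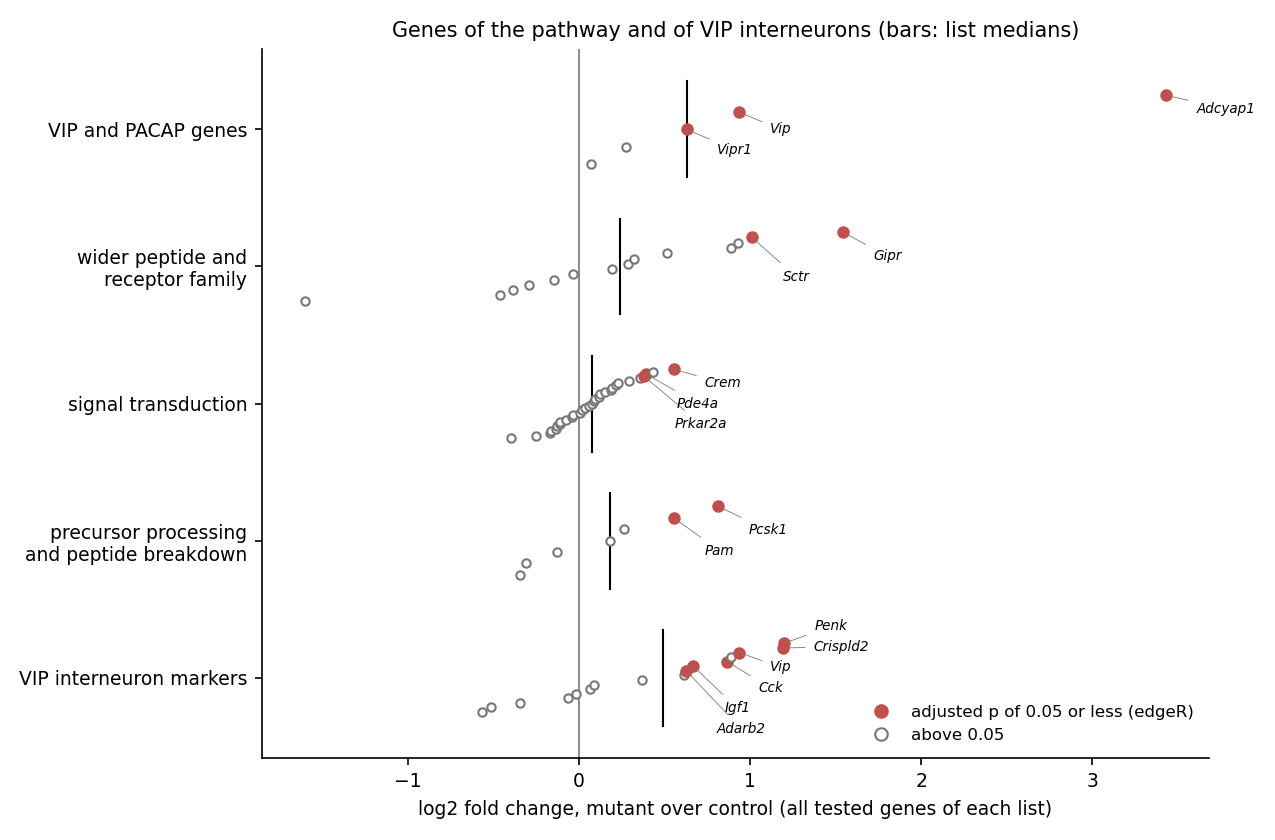
Log2 fold change, mutant over control, of every tested gene in 5 lists, with filled red points for genes at an edgeR adjusted p of 0.05 or less and bars for the list medians. The signalling genes lay around 0 (median 0.08), whereas 6 of 16 VIP interneuron markers, *Vip* among them, were called higher.

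Markers of other cells were read beside *Vip* and *Adcyap1*. Of 16 genes used as markers of VIP interneurons, 6 were called higher and 0 lower, with a median log2 fold change of 0.49, and their summed normalized counts ran from 21529 to 24017 in controls and from 32112 to 35207 in mutants. Besides *Vip* these were *Penk*, the enkephalin precursor gene (3067 ± 842 normalized counts in controls and 7027 ± 924 in mutants), *Crispld2* (log2 fold change 1.19), *Cck*, the cholecystokinin precursor gene (0.87), *Igf1* (0.67) and the RNA-editing gene *Adarb2* (0.63). Of these, *Cck* and *Igf1* kept their call with any 1 library left out. *Penk* and *Adarb2*, like *Vip*, lost theirs without mutant library 12 or 13, and *Crispld2* kept its call in 1 of 7 such fits. *Calb2*, the calretinin gene, had -0.57 and *Synpr* -0.52, neither past the threshold. DESeq2 called 7 of the 16 higher and 0 lower, and at an unadjusted p of 0.05 edgeR counted 9 higher and 2 lower. Among all 19684 tested genes, DESeq2 called 1731, and 3590 passed at the unadjusted edgeR p. *Penk* and *Cck* are also made by striatal and excitatory neurons in large amounts, so the sum is not a count of VIP cells.

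General GABAergic markers were read in the same way. *Gad1* and *Gad2*, which make GABA, had log2 fold changes of 0.50 and 0.48 (edgeR adjusted p = 0.0951 and 0.0862), and *Slc32a1*, which loads it into vesicles, had -0.04. Among the cortical excitatory markers *Rorb* fell by 0.47 (edgeR adjusted p = 0.0352) and lost its call in 6 of the 7 fits that left out 1 library. The sum over the 8 markers of that list ran from 81523 to 93154 in controls and from 90588 to 109402 in mutants.

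Hypothalamic peptides were looked at because the hypothalamus is rich in PACAP neurons. Of 11 such markers 7 were tested, and 1 was called higher, *Gal*, the galanin precursor gene, with 8.77, 8.03, 5.76 and 6.10 normalized counts in controls and 61.3, 61.1 and 54.9 in mutants (3.03, edgeR adjusted p = 0.00066). *Gal* had fewer than 10 normalized counts in every control library, so its mutant libraries alone took it past the filter on low counts. It was tested in 4 of the 7 fits that left out 1 library and kept its call in all 4. *Prok2* (2.12, edgeR adjusted p = 0.0503), *Avp* (1.11, 0.280) and *Trh* (0.96, 0.284) did not pass, and *Pomc* (0.11) and *Agrp* (-0.09) were close to 0. The summed markers ran from 146 to 238 in controls and from 265 to 416 in mutants, and *Oxt*, *Hcrt*, *Pmch* and *Six6* had means of at most 3.60. Of the 7 tested markers 6 had a positive log2 fold change (median 0.96), and 2 were higher with DESeq2 and at an unadjusted edgeR p of 0.05. *Gal*, *Avp* and *Prok2* passed the filter only with their mutant libraries. The filter thus tilts the count of positive signs and the median upward. The part of dissected hypothalamus in the *Adcyap1* difference was not tested. Thalamic markers had 0 of 6 tested genes called, with sums from 5443 to 7475 in controls and from 5987 to 6369 in mutants, 1 lower at an unadjusted edgeR p of 0.05 and 0 with DESeq2. Of 5 forebrain markers 1 fell, *Lhx2* by 0.33 (edgeR adjusted p = 0.0368, lost in 6 of the 7 fits that left out 1 library), and of 2 tested cerebellum and hindbrain markers 0 were called, at an unadjusted p of 0.05 or with DESeq2 either.

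Most glial and vascular markers did not pass the test. Of 4 oligodendrocyte markers 2 fell, *Mbp* by 0.53 and *Mag* by 0.54 (edgeR adjusted p = 0.00752 and 0.0100), with sums from 187204 to 244265 in controls and from 135487 to 167148 in mutants. *Mbp* lost its call without mutant library 13, and *Mag* without mutant library 5 or 13. Of 7 astrocyte, 5 microglial, 4 endothelial and 4 pericyte markers 0 were called, with medians of 0.12, -0.15, 0.32 and 0.29. DESeq2 called 2 astrocyte, 0 microglial, 1 endothelial and 2 pericyte markers, all higher, and at an unadjusted p of 0.05 edgeR counted 2, 2, 3 and 2, of which the microglial ones were lower. Astrocytes express *Adcyap1r1* and their marker sums ran from 70567 to 77537 in controls and from 78981 to 84459 in mutants. The part of these cells in the members' values was not tested.

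Of the tested genes within 500 kb of a member, 2 were called, both near *Vipr1*. Over all tested genes 4.85% were called, and counts this small do not show a lower share. *Adcyap1* stands alone, with 0 tested genes starting within 500 kb of it and the nearest tested protein-coding genes, *Gm6741* and *Mettl4*, 1962.6 kb before and 1550.5 kb after its start (log2 fold changes -0.48 and -0.10, neither called). Near *Vip* 0 of 5 tested genes were called, and its nearest coding neighbours *Myct1* and *Fbxo5* had 0.21 and -0.14. Near *Vipr2* 0 of 6 were called (*Zfp386* 0.07, *Wdr60* -0.19), and near *Adcyap1r1* 0 of 9 (*Aqp1* 0.02, *Neurod6* -0.11). DESeq2 also called 0 near each of these 3 members, and at an unadjusted p of 0.05 edgeR counted 1 gene near *Vip*, 0 near *Vipr2* and 2 near *Adcyap1r1*. The *Gm6741* and *Mettl4* distances were looked up after the values had been seen.

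Near *Vipr1*, 2 of 18 tested genes were called higher, beside 2.97% of all tested genes. *Cck* starts 147.0 kb before *Vipr1* and rose from 7511 ± 175 (SD, n = 4) to 13687 ± 375 (SD, n = 3) normalized counts (0.87, edgeR adjusted p = 0.000641). *Klhl40* starts 134.9 kb after it and rose from 157 ± 30.7 to 463 ± 26.1 (1.56, edgeR adjusted p = 0.00139). Both kept their call with any 1 library left out. *Lyzl4* starts 620 bases before *Vipr1* on the other strand and had 12.9 ± 7.20 and 29.0 ± 6.90 normalized counts (1.16, edgeR adjusted p = 0.187), and on the far side *Sec22c* had -0.11. The median of the 18 neighbours was 0.02.

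The genes most like each member over the 7 libraries are given as a description, since with 7 points that share the genotype any gene that differed strongly resembles the others. By Pearson's r of log2 CPM, *Adcyap1* was followed most closely by *Cck* (0.996), *Gal* (0.995) and *A2m* (0.995), *Vip* by *Mitf* (0.990), *Spag6* (0.988) and *Nrsn1* (0.986), and *Vipr1* by *Csrnp1* (0.996), *Armc5* (0.994) and *Sec16b* (0.993). *Cck*, the closest to *Adcyap1*, is another neuropeptide gene and rose less. For the members that did not pass the test, the closest were *Itih2* (0.968), *Scamp5* (0.966) and *Cpn1* (0.950) for *Vipr2* and *Fam189b* (0.986), *Hs6st1* (0.983) and *Ksr1* (0.969) for *Adcyap1r1*. Between members r was highest for *Adcyap1* and *Vipr1* (0.938) and lowest for *Vip* and *Adcyap1r1* (0.101).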

How the data were processed

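Forebrain RNA of P15 mice was sequenced as 36 bp single-end reads on an Illumina GAIIx. The RNA input was 1 µg per library in the methods and 0.5 µg in the sample records. The authors trimmed reads with cutadapt 1.9.1, aligned them with Bowtie2 2.2.9 to the Ensembl GRCm38.84 transcriptome and deposited expected counts per gene from RSEM 1.2.31, without normalization. Of the gene values of a library, 32.9% to 36.0% were not whole numbers, since RSEM shares reads that match several genes. This is a share of values and not of reads. Strandedness is not given in the sources used here. The authors also deposited their DESeq2 comparison (fold changes and p-values), from which gene symbols only were taken. Columns of per-sample values left unused numbered 0.

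Expected counts were rounded. Analyses used R 4.3.3. Genes that reached 10 counts in 3 or more libraries were scaled by TMM and compared between genotypes by the quasi-likelihood test of edgeR 4.0.16, without covariates. The Benjamini-Hochberg adjustment ran over all tested genes, and the threshold was 0.05. DESeq2 1.42.0 and limma-voom (limma 3.58.1), other scalings and filters, unrounded counts, each library left out, the run of library numbers and Y-linked expression were alternatives. To normalize, counts were divided by the TMM-scaled library total and multiplied by the mean of those totals. Lengths are merged exons. The column names give genotype and library number alone, which set the groups, and the sexes and RIN of the labels could not be assigned to columns. Replicates are pools whose litters are not stated, and p-values measure the spread between them. No pair of replicates agreed within sampling noise (chi-square per degree of freedom 9.35 to 65.9). Promoters came from a RefSeq table, which matched all 5 members.

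The members, the lists and the alternatives were chosen with earlier results of these data known. Genes were named by rule: the members, *Lhx6*, the 3 genes most correlated with each member, the nearest tested coding gene on each side within 500 kb, and, of each list, the called genes and up to 4 others. *Bcl11b*, *Hoxa5*, *Cbln3*, *Pcp2*, *En1*, the sex-linked genes, *Klhl40* and further members of the lists were named after their values were seen. Some called genes of the cell type lists are not reported here.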

Additional observations from a re-analysis of the deposited data

How the results depend on the processing

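Of the 5 genes, *Adcyap1* and *Vipr1* were called in all 17 tests under other settings and *Vipr2* and *Adcyap1r1* in 0, with adjusted p-values from 0.407 to 0.789 and from 0.542 to 0.903. *Vip* was called in 15. Without mutant library 12 or 13 it was not (log2 fold change 0.87 and 0.88, adjusted p = 0.0685 and 0.0804), and with each library left out it ran from 0.82 to 1.06. Its adjusted p over all tests ran from 6.38e-06 to 0.0804. In libraries 2, 3 and 5 only, where no test was run, the log2 fold change was 3.13 for *Adcyap1*, 0.82 for *Vipr1* and 0.44 for *Vipr2*. The number of all genes called, 954, became 1731 with DESeq2, 2205 when the fit held a term for library run, 1923 in libraries 10 to 13 only and 302 to 969 with each library left out. Called signalling genes ran from 0 to 5 higher and 0 to 1 lower, and called genes of the wider family from 0 to 5 higher. The difference in log2 ratio of *Adcyap1* to *Vip* ran from 2.37 to 2.70. The cause of these shifts was not tested. No paired analysis was possible because the data columns carry no replicate number of the labels.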
